A study of Mus musculus with 4 samples.

Results

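MED1 occupancy of the histone genes was mapped by ChIP-seq in a mouse macrophage-like cell line, RAW 264.7, stimulated for 2 h with lipopolysaccharide (LPS, 2 libraries) or left untreated (2 libraries). MED1 is a subunit of Mediator, the complex that passes signals from transcription factors to RNA polymerase II, and LPS is an outer membrane molecule of bacteria that macrophages detect. The sources disagree on the LPS concentration, with 10 ng/mL in the descriptions of the samples but 100 ng/mL under treatment. The values are the positions of 1 list of intervals for all 4 libraries, with no height, depth or library name, so LPS-stimulated and untreated cells could not be compared and nothing below has a replicate error. The histone genes were the RefSeq protein-coding genes whose symbol begins with H1f, H2ac, H2bc, H3c or H4c followed by a digit, 67 of 21883 protein-coding genes. They comprise 10 genes of H1, 17 of H2A, 16 of H2B, 12 of H3 and 12 of H4.

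Histones package DNA: H2A, H2B, H3 and H4 form the nucleosome core, and H1 binds the linker DNA between cores. The genes counted here are mostly replication-dependent, short and without introns, and are transcribed together in S phase. Their mRNAs end in a stem-loop instead of a poly(A) tail. They lie in chromosomal clusters, often as H2A and H2B genes that start back to back, whereas a few linker histone genes lie alone.

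Grouping members at most 500 kb apart gave 3 clusters and 4 lone genes. The chromosome 3 cluster (chr3:96219885-96270192) held 10 members in 50.3 kb. The first chromosome 13 cluster (chr13:21715711-22043658) held 22 members in 327.9 kb, and the second (chr13:23531044-23934913) held 31 members in 403.9 kb. H1f10 and H1f8 lay far apart on chromosome 6, and H1f0 and H1f7 on chromosome 15. Coordinates are 1-based on mm10 (GRCm38.p6).

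The bases between back-to-back H2A and H2B starts, from RefSeq (GRCm38.p6), are shown because several of these pairs lay inside a MED1 region and others lay far from one. Capitals mark a CCAAT box, an octamer (ATTTGCAT) or a TATA box with the letters TATAAA, on either strand. The name TATA box is used for these letters at any distance from the start. The first 2 sequences lay inside a region and the last 2 lay outside every region. The last is cut to the 250 bases before H2ac1.

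H2ac15-H2bc15, chr13:21753913-21754075, plus strand: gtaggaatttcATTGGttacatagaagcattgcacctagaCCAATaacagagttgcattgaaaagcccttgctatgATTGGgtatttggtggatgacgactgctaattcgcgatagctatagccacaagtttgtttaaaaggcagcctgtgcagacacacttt

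H2ac8-H2bc8, chr13:23571221-23571399, plus strand: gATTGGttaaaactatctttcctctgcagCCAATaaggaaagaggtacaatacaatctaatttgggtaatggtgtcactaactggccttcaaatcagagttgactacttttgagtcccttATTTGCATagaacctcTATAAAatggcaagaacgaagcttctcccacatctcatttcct

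H2bc23-H2ac23, chr13:21810200-21810366, plus strand: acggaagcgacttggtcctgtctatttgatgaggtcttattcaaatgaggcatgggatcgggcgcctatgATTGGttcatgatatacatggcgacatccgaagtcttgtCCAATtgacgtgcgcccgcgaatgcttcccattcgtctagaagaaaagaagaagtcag

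H2bc1-H2ac1, chr13:23934187-23934436, plus strand: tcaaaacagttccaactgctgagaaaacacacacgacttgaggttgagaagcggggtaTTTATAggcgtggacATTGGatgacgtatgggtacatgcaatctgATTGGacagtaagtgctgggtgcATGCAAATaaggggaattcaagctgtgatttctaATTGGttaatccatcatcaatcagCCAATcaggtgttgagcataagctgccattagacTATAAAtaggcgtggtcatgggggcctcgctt

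Most histone genes carried a MED1 region at an end. Deposited intervals that abut were joined into 22570 regions, and a gene was counted when a region overlapped the 1 kb on either side of a gene end. This held for 59 of 67 histone genes (88.1%), beside 45.5% of all protein-coding genes. Short genes were rarely occupied elsewhere: of 1519 other protein-coding genes of 1 kb or less, 40 (2.63%) had a region. Their median length was 933 bp, beside 496 bp for the histone genes. Whether these short genes are active in the cells was not measured, so they are matched in no respect but the length limit. In surroundings as gene-dense as those of the median histone gene, with at least 6 other gene middles within 25 kb, 105 of 254 other genes (41.3%) had one. Whole genes were covered too: 47 histone genes (70.1%) lay from end to end inside 1 region, beside 1.55% of all genes. Histone genes were 47 of the 339 protein-coding genes of which this was true. Short genes fit inside a region more easily, and the median length of other protein-coding genes was 17240 bp. Of other genes of 1 kb or less, 26 of the 40 with a region lay wholly inside 1. Among histone genes with a region it was 47 of 59. In gene-dense surroundings, 14 of the 254 other genes (5.51%) lay wholly inside 1. The start of the gene lay inside a region for 49 of the 62 members with a RefSeq start (79%), beside 42.8% of all genes with one. Neighbouring genes share regions and are not independent, so these shares carry no test.

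The count depended on how a wide region is assigned. When the midpoint of a region had to lie within 1 kb of a gene end, 13 histone genes (19.4%) were counted, below the 36.8% of all genes.

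**Figure D1:**
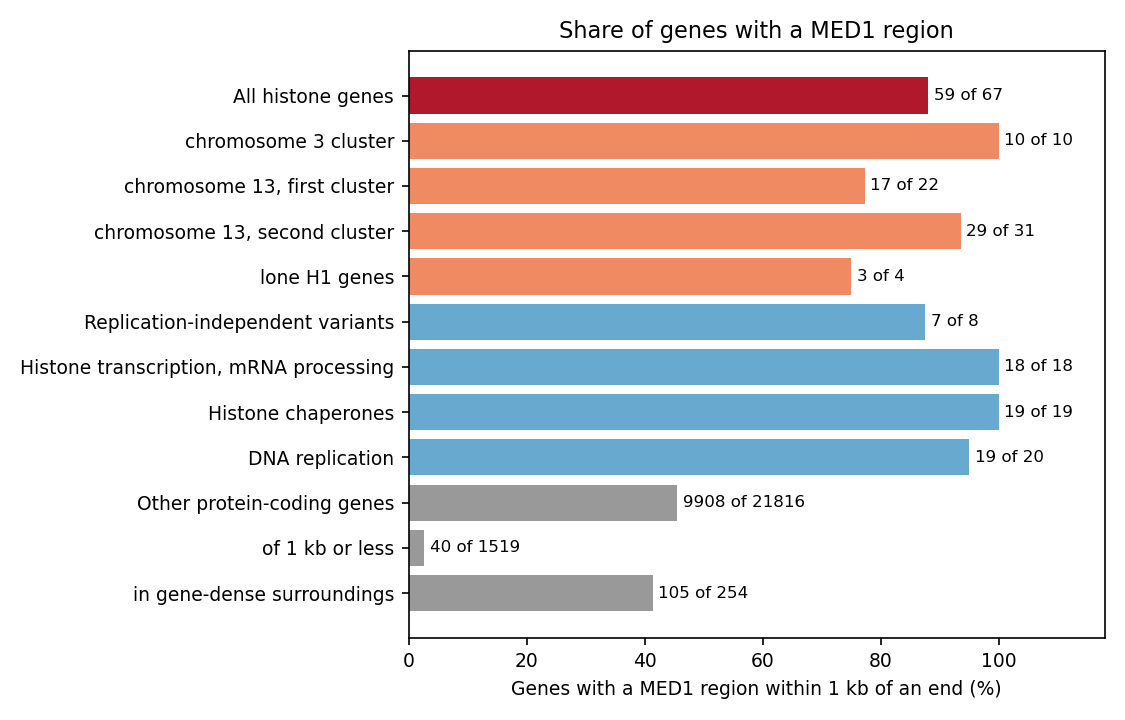
The horizontal bars give the percentage of genes with a MED1 region within 1 kb of an end, with counts beside them. Histone genes (59 of 67) and their chromosomal groups are on top, lists of related genes follow, and other protein-coding genes (9908 of 21816) are at the bottom.

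All 12 H3 genes had a region, as did 9 of 10 H1 genes, 14 of 16 H2B genes, 10 of 12 H4 genes and 14 of 17 H2A genes. The types differ by few genes, and 7 of the 8 genes without a region lay in 2 neighbourhoods of chromosome 13. A single region often held several types at once.

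The 59 genes shared 23 regions, and these were wide. Their median width was 8431 bp (lowest 1110, highest 30643 bp), beside 2139 bp for the 9227 regions at ends of other protein-coding genes only. A width of 5 kb or more was reached by 17 of the 23 (73.9%), beside 11.4% of the other gene-end regions, and 10 kb or more by 9 (39.1%), beside 2.77%. The 2 single-interval regions were the narrowest, 1110 bp at H1f10 and 1450 bp at H3c7.

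Histone regions often touched more than 1 histone gene. The median was 2 histone genes per region and the highest was 9. The 89 regions of other genes in equally gene-dense surroundings also touched a median of 2 genes. Their median width was 2478 bp, and 18% were 5 kb or wider. Of the 9250 regions at any gene end, 153 touched 3 or more protein-coding genes, and 11 of these were histone regions. Only 5 regions touched 5 or more genes. Histone regions were 4 of them, and the other, of 2452 bp, lay at Gm20517, Usp49, Tomm6, Frs3 and Prickle4 on chromosome 17. Among the histone regions 47.8% touched 3 or more genes, beside 1.54% of the other gene-end regions. Those other regions were not matched for gene spacing.

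**Figure D2:**
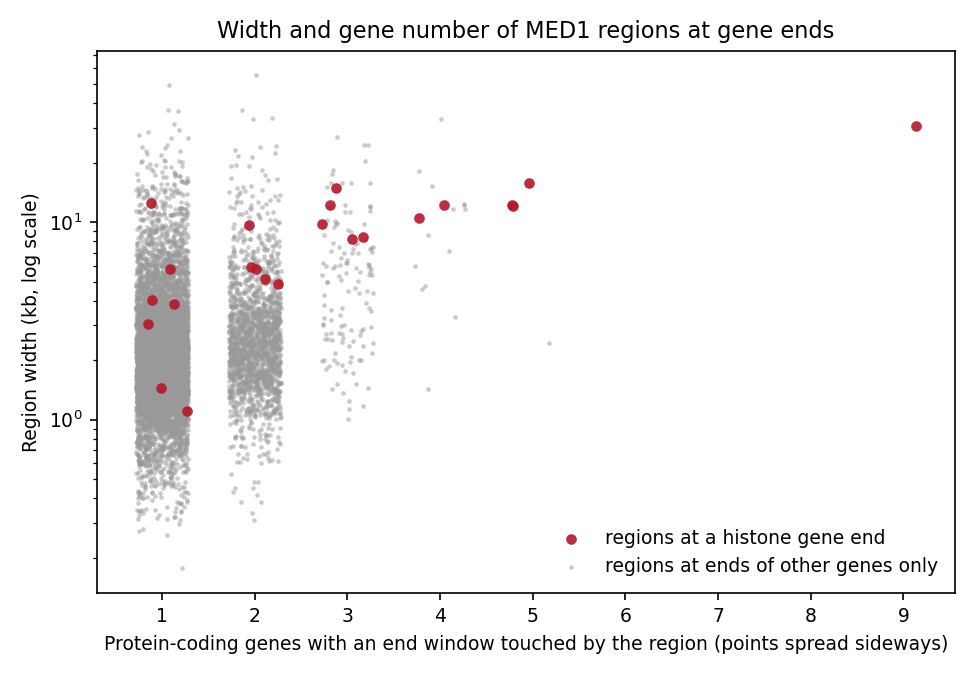
Each point is a MED1 region at a gene end, with the number of protein-coding genes it touches on the horizontal axis and its width in kb on a logarithmic vertical axis. Red points are the 23 regions at histone genes and grey points the 9227 others, and the red point at 9 genes is the region of 30.6 kb on chromosome 13.

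The region with the most members lay in the second chromosome 13 cluster (chr13:23734996-23765638), at the right end of the stretch from H4c8 to H1f1. It measured 30.6 kb, wider than 99.93% of all regions, and contained H1f2, H3c3, H2bc3, H2ac4, H3c2, H4c2, H4c1, H3c1 and H1f1 from end to end. It thus held genes of the linker histone and of all 4 core histones. A region of 15.7 kb at the left of the same cluster (chr13:23528995-23544701) touched H4c8, H2ac10, H3c8, H2bc9 and H3c7. Another region with 5 genes there (chr13:23566344-23578373, 12030 bp) held 2 back-to-back pairs, H2ac8 with H2bc8 and H2bc7 with H2ac7, and the gene H3c4.

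Further regions of that cluster held fewer members each. A region of 12.2 kb held H4c6 and H1f3 and ended within 1 kb of H3c6 without covering it. The start of H3c6 lay in the next region, of 3852 bp, which covered 26.2% of the gene. H4c4 and H2bc6 shared 9.7 kb, and H1f4 and H2bc6 shared 5.8 kb. H2bc6 was touched by both because its RefSeq model spans 37455 bp with 2 listed starts, each inside a region. H2ac6 and H2bc4 shared 5.9 kb. The testis linker gene H1f6 shared a region of 8.2 kb with H4c3 and the iron-regulating gene Hfe, but that region began inside H1f6 and left its start outside, with 50.2% of the gene covered. Gaps between neighbouring regions at histone genes of the stretch varied, with 345 and 504 bp among the short ones and 8596, 30272 and 57057 bp among the long ones.

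In the first chromosome 13 cluster, the region with the most members (chr13:22032862-22045027, 12.2 kb) held H2ac12, H2bc12, H4c9, H2ac11 and H2bc11. The widest (chr13:21777536-21789754, 12219 bp) touched H1f5, H3c11, H2ac22 and H2bc22. H2bc13, H2ac13, H3c10 and H2bc14 shared 10.5 kb, H4c12, H2ac15 and H2bc15 shared 8.4 kb, and H4c11 had a region of 3.1 kb to itself.

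On chromosome 3, 5 regions covered 45.7 of 50.3 kb (90.8%) and touched all 10 members. The widest (chr3:96217732-96232525, 14.8 kb) held H2ac21, H2ac20 and H2bc21. H4c14, H3c13 and H2bc18 lay inside 9.8 kb (chr3:96260658-96270461). H3c14 was overlapped by the start of a region of 12.5 kb, H3c15 by the end of one of 5.8 kb, and H2ac19 and H2ac18 bordered one of 5.1 kb from both sides.

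**Figure D3:**
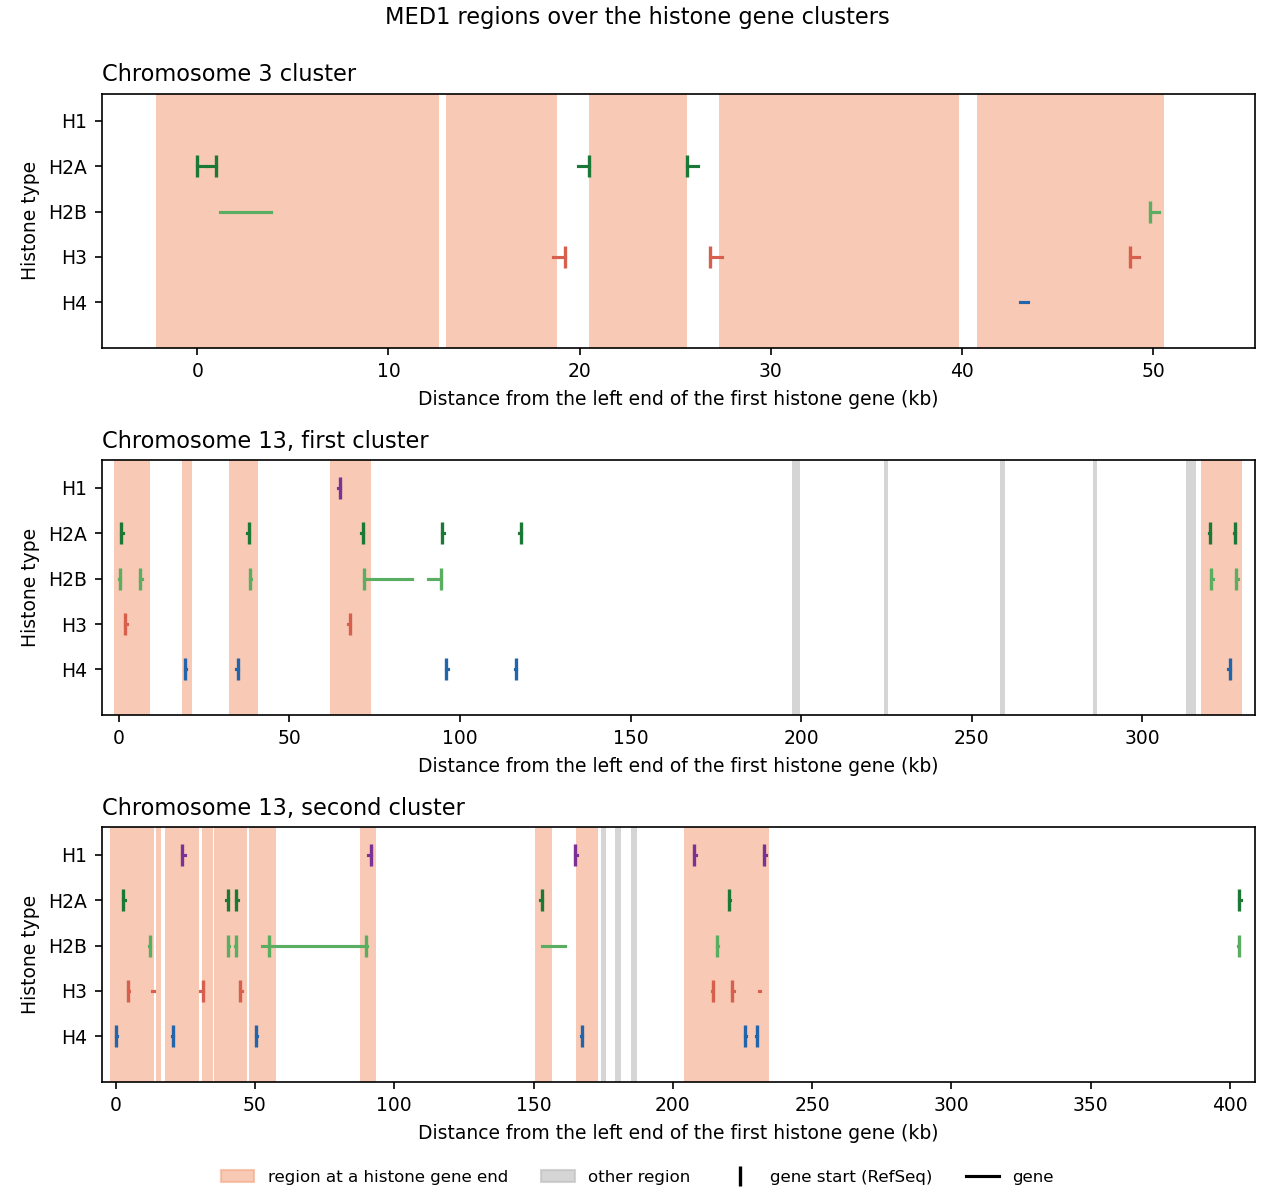
Each panel is a histone cluster, with distance from the left end of its first histone gene in kb on the horizontal axis and 1 line of genes per histone type. Shaded bands are MED1 regions, and 56 of the 63 clustered genes have one at an end, the exceptions being H2bc23, H2ac23, H4c17, H4c18, H2ac24, H2bc1 and H2ac1.

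The clusters differed in how much of their length was covered. Regions covered 90.8% of the chromosome 3 cluster, 27.2% of the second chromosome 13 cluster and 16% of the first. The chromosome 13 spans include long stretches without histone genes. When members at most 100 kb apart were grouped, the block from H4c8 to H1f1 had 29 of 29 members with a region and 46.5% of 233.4 kb covered. The block from H2ac12 to H2bc11 had 5 of 5 and lay wholly inside 1 region. The block from H2bc13 to H2ac24 had 12 of 17 and 27.8% of 117.8 kb covered, and the pair H2bc1 and H2ac1 had no region.

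Outside the clusters the cover was lower. In the 100 kb to the left and right, 19.2 and 19.6% were covered at the chromosome 3 cluster, 10.6 and 0% at the second chromosome 13 cluster, and 1.49 and 4.21% at the first. The cluster spans also held protein-coding genes whose symbols fall outside the rule for members. In the first chromosome 13 cluster, 1 of 4 such genes had a region (Prss16, not H4bc24, Zfp184 or Pom121l2). In the second, 1 of 6 had one (Hfe, not Trim38, Slc17a2, Slc17a3, Slc17a1 or Slc17a4). H4bc24 is the symbol as RefSeq spells it, with the older name Hist1h2br, an H2B name. It is thus a histone gene that the symbol rule missed, and it is not among the members counted. No gene outside the rule lay in the chromosome 3 span. The 8 regions of these spans that touched no histone gene measured 1093 to 2872 bp, and 6 of them were single intervals.

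The 4 lone linker histone genes gave 4 different pictures. H1f0, which encodes the linker histone H1.0 that accumulates in differentiated cells, lay wholly inside a region of 4.9 kb and 3 intervals (chr15:79026636-79031519) that also touched Gcat, 370 bp away. H1f10, which encodes the variant H1X, had a single interval of 1.1 kb (chr6:87981698-87982807) that began 216 bp beyond the gene and did not cover its start. H1f8, the oocyte linker histone gene, had a region of 4.0 kb (chr6:115942817-115946845) over its start and 36.1% of its length, with Plxnd1 4.57 kb away. H1f7, a spermatid linker histone gene, had none within 74.4 kb. All lone regions were narrower than the median of the cluster regions, 9740.5 bp.

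Regions of the deposited list are often split into abutting intervals, and how the authors made these is not given in the sources used here. Histone regions contained 3 intervals in 14 of 23 cases (60.9%), 5 or more in 7 (30.4%) and 1 in 2 (8.7%). Among the other gene-end regions the shares were 75.5%, 4.71% and 19.1%. In 3-interval regions the start of the histone gene lay in the middle interval in 23 of 23 cases, beside 4664 of 4854 for other genes (96.1%). In regions with an odd number of intervals, 5 or more, starts lay in an even-numbered interval in 24 of 25 cases, beside 86.1% of 294 for other genes. H4c11 was the exception, in the third of 5. The middle interval took a median of 76.6% of a 3-interval histone region (36.2 to 99.5%), beside 80.5% elsewhere. The 30.6 kb region had 2 long intervals, of 18680 and 9790 bp, with short ones of 699, 539 and 935 bp around them.

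A total of 8 histone genes had no region at an end. H2bc1 and H2ac1, which encode the testis histones TH2B and TH2A, lay 160.3 and 159.5 kb from the nearest region, and H1f7 lay 74.4 kb from one. The other 5 were neighbours in the first chromosome 13 cluster: H2bc23, H2ac23, H4c17, H4c18 and H2ac24, between 16.7 and 43.3 kb from a region.

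The 5 neighbours share promoter sequence with other genes. H4c17 and H4c18 are shown as an example, with the 150 bases before each start. Neither gene had a region. Their TATAAA letters stand at -128 (H4c17) and -127 (H4c18) from the start.

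H4c17, chr13:21811596-21811745, plus strand: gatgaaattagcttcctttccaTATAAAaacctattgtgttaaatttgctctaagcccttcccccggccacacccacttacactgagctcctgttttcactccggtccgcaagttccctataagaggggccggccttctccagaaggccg

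H4c18, chr13:21832198-21832347, minus strand: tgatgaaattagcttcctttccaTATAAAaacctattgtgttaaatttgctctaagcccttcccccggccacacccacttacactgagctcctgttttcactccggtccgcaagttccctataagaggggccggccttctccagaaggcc

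How much of a promoter recurs elsewhere was measured over the 300 bases from 250 before to 50 after each RefSeq start. Each window was cut into 251 overlapping stretches of 50 bases, the read length in the protocol. A stretch was counted when the window of another protein-coding gene held it on either strand. Windows that overlap in position, as at back-to-back genes, were not compared with each other. Of the 13 histone genes whose start lay outside every region, 8 had more than 50% of stretches recurring. These were the 5 neighbours, with 73.3% at H2ac24, 86.9% at H2ac23, 94% at H4c17 and H4c18 and 100% at H2bc23, and on chromosome 3 H3c15 and H3c14 (74.1% each) and H2ac18 (67.7%). The remaining 5, H1f10, H1f6, H1f7, H2bc1 and H2ac1, had none. Of the 49 genes whose start lay inside a region, 46 had none, H4c11 and H4c12 had 11.6%, and H2ac19 had 67.7%.

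On chromosome 3 such genes lay at region borders. H3c15 and H3c14 are shown with the 150 bases before each start, from RefSeq and with the same use of capitals, because both starts lay outside the regions. Neither stretch holds any of the 3 motifs, so neither has capitals.

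H3c15, chr3:96239128-96239277, minus strand: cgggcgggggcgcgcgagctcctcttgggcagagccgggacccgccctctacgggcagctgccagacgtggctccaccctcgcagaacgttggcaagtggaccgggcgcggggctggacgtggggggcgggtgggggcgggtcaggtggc

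H3c14, chr3:96246535-96246684, plus strand: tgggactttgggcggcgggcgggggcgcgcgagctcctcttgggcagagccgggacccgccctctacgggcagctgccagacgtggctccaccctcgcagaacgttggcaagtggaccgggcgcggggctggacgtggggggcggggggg

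The regions there left a gap of 1674 bp over H3c15 and H2ac19 (chr3:96238676-96240349) and one of 1664 bp over H2ac18 and H3c14 (chr3:96245486-96247149). H3c15 shared 186 of its 251 stretches with H3c14, and H2ac19 shared 170 with H2ac18. The region of H2ac19 covered its start and 4.19% of the gene. The same measure was taken over all other genes. Of 855 other genes with more than 50% of stretches recurring, 0 had their start inside a region. Of those with 50% or less, 7435 of 16574 (44.9%) had it inside. Whether the genes of either set are active in the cells was not measured, and the sets were not matched for it. How reads that match several places were treated is not given in the sources used here. Its part in the missing regions was not tested. The list gives no height or depth. The absence of a region therefore does not show the absence of MED1, at these 8 starts or at any other.

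Back-to-back H2A and H2B genes shared a region in 7 of 9 pairs whose starts lay at most 300 bp apart (77.8%), beside 293 of 318 such pairs of other genes (92.1%). Both genes of a histone pair had to match the symbol rule, so H4bc24 could not be in the 9 pairs. The distance between starts ran from 164 bp at H2ac15 and H2bc15 to 281 bp at H2bc1 and H2ac1. The 2 pairs without a region were H2bc23 with H2ac23, 168 bp apart, and H2bc1 with H2ac1. The sequences between these starts, shown above, held CCAAT boxes in both kinds of pair. A TATA box and an octamer stood both in that of H2ac8 and H2bc8, inside a region, and in that of H2bc1 and H2ac1, with no region.

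Sequence motifs of the 250 bases before the start were compared between the 62 histone genes and all 17491 genes with a RefSeq window, each on both strands. A CCAAT box stood in 49 histone promoters (79%), beside 36.3% of all, and in all 17 H2A and all 14 H2B promoters but in 3 of 11 H4 promoters. TATAAA stood in 28 (45.2%), beside 12.4% of all. The octamer ATTTGCAT stood in 12 (19.4%), beside 1.61%, all of them of H2A or H2B genes, whose back-to-back windows share bases. The E2F-type letters TTTCGCG stood in 11 (17.7%), beside 0.972%, and also in H2A and H2B promoters alone. For every motif, the same site can count for both genes of a back-to-back pair. The H1 box AAACACA stood in 9 (14.5%), beside 5.44%, among them 5 of 10 H1 promoters. The GC box GGGCGG stood in 20 (32.3%), beside 42.7%, with 8 of 11 H4 promoters among them.

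The CCAAT box was present in 44 of 54 promoters of genes with a region and in 5 of 8 without, and TATAAA in 24 of 54 and 4 of 8. The octamer was present in 10 of 54 and 2 of 8, the H1 box in 7 of 54 and 2 of 8, the GC box in 19 of 54 and 1 of 8, and TTTCGCG in 11 of 54 and 0 of 8. The numbers are small, and a match is not a bound site.

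Genes that act with histone genes mostly had a region too, beside 45.4% of protein-coding genes other than histone genes, whose regions had a median width of 2140 bp. Of the replication-independent histone variants, 7 of 8 had a region, with a median width of 3274 bp. H3f3b, one of the H3.3 genes, had 13.7 kb, H2ax, the variant phosphorylated at DNA breaks, had 6.2 kb, and Macroh2a2 had none. All 18 genes of histone gene transcription and mRNA processing had one, among them Npat, Slbp and Casp8ap2, with a median width of 2000 bp and none of 5 kb or more. All 19 histone chaperone genes had one (median 2148 bp), with the widest at Npm1 (10982 bp) and Daxx (10141 bp). Of 20 DNA replication genes 19 had one (median 2482 bp), with the widest at Cdt1 (6.6 kb) and Rrm2 (5.6 kb), and Rfc1 had none. Differences between these lists and the histone genes in share or width were not tested. As a check of the cell line, all 6 macrophage markers (Csf1r, Adgre1, Spi1, Cd68, Itgam and Lyz2) had a region, whereas Alb, Cd3e, Myod1, Gfap and Cdh1, markers of other cell types, had none.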

How the data were processed

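MED1 ChIP-seq libraries of RAW 264.7 cells (2 after LPS, 2 untreated) were fixed with DSG and formaldehyde and sequenced as 50-base single reads, per the labels' protocols. Bowtie, SAMtools, MACS2 2.2.6 and mm10 are named in the submitters' processing notes; for the control, threshold, pooling and repeated matches, settings were not given in the sources used here. Positions of 53764 intervals were deposited, and the authors' score column holds 0 throughout. The list has 0 columns of other samples. Depth is unknown.

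Abutting intervals were joined and compared with RefSeq GRCm38.p6 genes on chromosomes 1 to 19, X and Y. RefSeq promoter windows matched 62 of 67 histone genes. The members, lists and rules were chosen with earlier results of these data known, so counts are given beside all genes, without tests. All members were accounted for, and those named follow a rule on the widest and most shared regions, lone genes and genes without a region. The counting was tested on simulated data. A further marker of other cell types is not reported here. Backgrounds by gene length and density, the 100 kb grouping and the measure of recurring promoter stretches were added after seeing the data. Python 3.11.15, numpy 2.4.6, pandas 2.3.3 and matplotlib 3.10.9 were used.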

Additional observations from a re-analysis of the deposited data

How the results depend on the processing

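The count of 59 histone genes with a region held within 1.5 times under 6 other settings. Of 67 members, 59 were counted with windows of 0.5 and 2.5 kb, beside 44.1 and 48.4% of all genes. With the gene body only 57 were counted, beside 50.6%. Leaving out regions of 1 interval gave 58, beside 39.2%, and regions at or above the median width gave 58, beside 28.3%. With the start only, 54 of the 62 members with a start were counted (87.1%), beside 46.3%. The count became 13 (19.4%, beside 36.8% of all genes) when the region midpoint had to lie in the window. These were 2 genes in the first chromosome 13 cluster, 8 in the second, 0 on chromosome 3 and 3 lone genes. Without joining, the number of intervals at histone genes was 45, the most histone genes in 1 interval 5 and the median width 2955 bp, since joining sets these values. Joining regions within 500 bp gave 21 regions, 9 genes at most and 9677 bp. Grouping members up to 2 Mb apart merged the chromosome 13 clusters, with 46 of 53 genes. No paired analysis was possible because the list names no library, and leaving out each replicate was not run for that reason. Occupancy strength, library agreement and the effect of LPS were beyond these positions.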
